A study of Mus musculus with 3 samples.

Results

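Trem1, Trem2, Tyrobp, Cd300lf, Cd300lb, Clec4e and Clec4d are 7 genes of the activating and inhibitory receptors on myeloid cells, taken by name from the 29298 genes of the deposited tables. They were proposed from their levels in these same cells, so their levels by cell class, Trem1 against Trem2 within macrophages, and Cd300lf with and without F7 are given as descriptions with no test. The data are single-cell molecule counts of CD45-selected leukocytes from infarcted mouse hearts, from a study of the coagulation factor gene F7 in macrophages during remodelling of the heart. Each of the 3 multiplexed libraries pooled tagged samples, labelled as of both genotypes, F7fl/fl CX3CR1Cre and F7fl/fl WT, so all animals carry the floxed F7 allele and differ in the Cre, which is driven by the Cx3cr1 gene and acts in monocytes, macrophages and other cells that express it. Library 1 held 7 sample tags, library 2 held 5 and library 3 held 6, which makes 18. The headers name library 1 F7_d3, library 2 H13 and library 3 H14, and these names were not used to set a time. Strain, age and time after infarction are not given for single tags, nor is the genotype, and the authors' demultiplexing key was not used here, so no genotypes or times were compared.

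The receptors of the TREM and CD300 families and the C-type lectins of the Clec4 cluster often lack signalling motifs of their own and pair with an adaptor in the membrane. Tyrobp encodes DAP12, an adaptor with an immunoreceptor tyrosine-based activation motif that recruits the kinase Syk. TREM1 amplifies inflammatory responses of neutrophils and monocytes through DAP12, whereas TREM2 binds lipids and apoptotic material through the same adaptor and is known from lipid-handling macrophages and microglia. CLM-1, the product of Cd300lf, carries inhibitory motifs and binds phosphatidylserine and ceramide, and the product of Cd300lb is an activating receptor that can pair with DAP12. Mincle, from Clec4e, senses dead cells and mycobacterial glycolipid through the Fc receptor gamma chain, and MCL, from Clec4d, forms a complex with it.

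All of the genes but Tyrobp share a locus with another member, and the promoters of the Trem and Clec4 pairs are shown here, since the levels of Trem1 and Trem2 were opposed and those of Clec4e and Clec4d alike over the classes. Trem1 (ENSMUSG00000042265, chr17:48232768-48246924, plus strand) lies 99476 bases before Trem2 (ENSMUSG00000023992, chr17:48346401-48354147, plus strand). Clec4d (ENSMUSG00000030144, chr6:123262111-123275265, plus strand) lies 6523 bases from Clec4e (ENSMUSG00000030142, chr6:123281789-123289870, minus strand), the 3′ ends of both facing each other. Cd300lb (ENSMUSG00000063193, chr11:114922781-114934386) and Cd300lf (ENSMUSG00000047798, chr11:115116214-115133992) are both on the minus strand with 181827 bases between them, and Tyrobp (ENSMUSG00000030579) is at chr7:30413760-30417585 on the plus strand. An annotated pseudogene overlaps Trem1 on the opposite strand and another overlaps Cd300lb, and reads shared with them were not examined here. Gene positions are those of GENCODE M21 on GRCm38. The sequences run from 250 bases before the start of transcription to 50 after it, 5′ to 3′ on the gene's strand, from RefSeq for GRCm38.p6. Capitals mark every match to the motifs searched on both strands, AP-1 (TGANTCA), C/EBP (TTGCNNAA), PU.1 (GAGGAAGT), the ETS core (AGGAAG) and MiT/TFE (CACGTGAC), with N for any base. The windows are chr17:48232489-48232788 (Trem1), chr17:48346151-48346450 (Trem2), chr6:123289822-123290121 (Clec4e, minus strand) and chr6:123261857-123262156 (Clec4d).
Trem1: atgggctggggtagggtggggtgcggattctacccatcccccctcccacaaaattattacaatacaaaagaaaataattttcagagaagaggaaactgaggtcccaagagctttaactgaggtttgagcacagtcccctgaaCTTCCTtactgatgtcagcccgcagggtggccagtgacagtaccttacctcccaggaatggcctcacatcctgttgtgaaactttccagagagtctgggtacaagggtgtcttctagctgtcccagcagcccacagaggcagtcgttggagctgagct
Trem2: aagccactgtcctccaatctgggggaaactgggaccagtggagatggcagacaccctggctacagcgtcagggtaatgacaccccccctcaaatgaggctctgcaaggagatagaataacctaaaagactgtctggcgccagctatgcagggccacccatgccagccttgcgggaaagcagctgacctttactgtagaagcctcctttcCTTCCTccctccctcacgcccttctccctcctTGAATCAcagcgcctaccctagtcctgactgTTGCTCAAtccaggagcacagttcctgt
Clec4e: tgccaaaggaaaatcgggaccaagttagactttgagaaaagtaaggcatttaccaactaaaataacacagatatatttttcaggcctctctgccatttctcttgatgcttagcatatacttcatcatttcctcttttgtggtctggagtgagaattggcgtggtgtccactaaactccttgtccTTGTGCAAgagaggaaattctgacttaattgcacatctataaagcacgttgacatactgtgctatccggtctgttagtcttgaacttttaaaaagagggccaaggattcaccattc
Clec4d: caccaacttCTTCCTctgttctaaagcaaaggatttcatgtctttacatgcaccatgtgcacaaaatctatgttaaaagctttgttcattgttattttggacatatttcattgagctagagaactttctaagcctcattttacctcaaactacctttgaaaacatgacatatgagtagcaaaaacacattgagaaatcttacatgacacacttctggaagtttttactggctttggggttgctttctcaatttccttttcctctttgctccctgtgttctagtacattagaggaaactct

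The Trem1 window held an ETS core on the reverse strand at position -108. In the Trem2 window, an ETS core stood at -41, an AP-1 match at -9 and a C/EBP match at 23. Clec4e had a C/EBP match at -66 and Clec4d an ETS core at -241. Of the windows not printed, Cd300lf held a PU.1 match at position 1, which overlaps an ETS core at 2, and another ETS core at -44, and Cd300lb an ETS core at -24. None of the 6 windows held a MiT/TFE match. Among 32851 mouse promoter windows of the same length, 35.4% held an ETS core, 10.8% a C/EBP match, 7.81% an AP-1 match, 3.20% a PU.1 match and 2.25% a MiT/TFE match. The share for the ETS core shows that its presence here is common among promoters, and a match describes these letters only.

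Of 25762 cells, 25640 had at least 200 genes and were kept, with 349827525, 88942652 and 93812439 molecules in libraries 1, 2 and 3. Classes were assigned by the first rule that a cell met, in this order. T cells had at least 2 molecules of Cd3e, Cd3d and Cd3g, B cells at least 2 of Cd79a, neutrophils at least 1% of molecules from S100a8 and S100a9 with 1 of Csf3r, macrophages at least 0.1% from C1qa, C1qb and C1qc, dendritic cells 1 of Flt3 and monocytes 2 of Ly6c2. This gave 15023 macrophages (58.6% of cells), 488 neutrophils, 2427 monocytes, 1371 dendritic cells, 1225 T cells, 779 B cells and 4327 cells of no class. Monocytes made up 14.6% of library 1, 2.31% of library 2 and 1.59% of library 3. The neutrophil marker list summed to 152 counts per 1000000 molecules (CPM) in macrophages and 33496 CPM in neutrophils. Median depth was 20575 molecules in macrophages, 3997 in neutrophils and 12701 in monocytes. Among T and B cells, 52.0% and 51.7% met a second rule, so these 2 classes hold many barcodes with macrophage RNA. Only the T-cell, B-cell, neutrophil and macrophage rules were counted as a second rule, here and below. Libraries shared 4, 3 and 0 cell index values in their 3 pairings.

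All 7 genes were detected in every one of the 6 classes, and 6 of the 7 were highest in neutrophils. Trem2 alone was highest in macrophages. For the neutrophil-high genes the lowest neutrophil tag lay above the highest monocyte tag, whereas every other pair of neighbouring classes had overlapping ranges. Levels below are molecules of the gene per 1000000 molecules of all genes, summed over the cells of a class in a tag, for tags with at least 20 cells of the class.

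**Figure D1:**
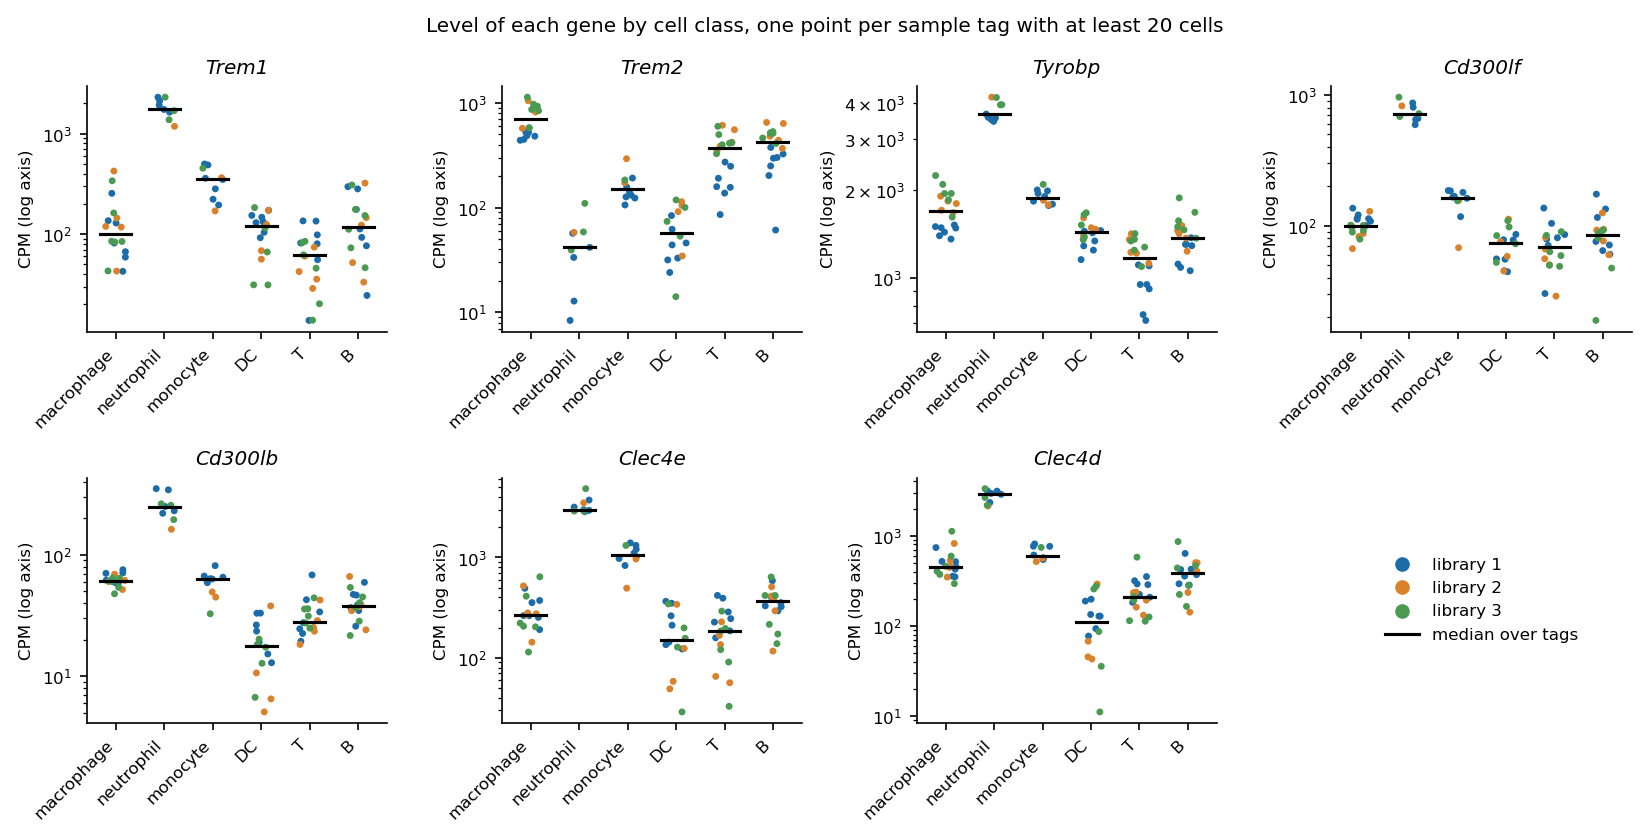
Level of each of the 7 genes (CPM, log axis) in 6 cell classes, with 1 point per sample tag coloured by library and a bar at the median over tags. Neutrophil tags stand above all monocyte tags for every gene but Trem2, which is highest in macrophages, with a median of 697 CPM against 41.8 CPM in neutrophils.

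Trem1, the amplifying receptor, had a median of 101 CPM in macrophages (42.5 to 424 over 18 tags), 1744 CPM in neutrophils (1184 to 2312 over 9 tags) and 354 CPM in monocytes (170 to 499 over 10 tags). In dendritic cells, T cells and B cells its medians were 120, 61.1 and 118 CPM. The macrophage range therefore overlapped those of monocytes, dendritic cells, T cells and B cells, and the ranges of macrophages and neutrophils stood apart. Within the 9 tags that had both classes, macrophages were lower than neutrophils in 9 of 9, by a log2 difference of -4.07 ± 0.23 (SE).

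Trem1 molecules also appeared in cells that should lack the gene, which bears on its low level in macrophages. With cells thinned to 5000 molecules and shallower cells left out, 21.6% of 14359 macrophages had a Trem1 molecule. Among cells that met no second rule, so did 99.1% of 115 neutrophils, 13.6% of 484 T cells and 26.8% of 257 B cells. Any of these cells that also met the dendritic cell or monocyte rule were kept. Before thinning, 34.9% of macrophages and 97.3% of such neutrophils had one, against 16.8% of such T cells (median depth 8443.5 molecules) and 26.9% of such B cells (median depth 6832.5). The average macrophage share of Trem1 thus lies between those of T and B cells, so it cannot be told apart from that background at the average, while the share in neutrophils lies far above it. Tyrobp was found in 54.1% of the thinned T cells and 73.2% of the thinned B cells. These lymphoid cells may hold myeloid RNA, which was not tested, and NK-cell markers summed to 180 CPM in the whole T class. For Clec4e the average macrophage share lay little above that of B cells, with 40.5% of macrophages and 98.3% of neutrophils against 20.04% of T cells and 36.6% of B cells after thinning.

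Trem2, the lipid-sensing receptor, ran the other way. Its median was 697 CPM in macrophages (439 to 1133 over 18 tags), 41.8 CPM in neutrophils (8.38 to 110 over 9 tags) and 149 CPM in monocytes (106 to 293 over 10 tags). All macrophage tags were above all neutrophil and monocyte tags, and in dendritic cells the median was 57.8 CPM. T and B cells had medians of 368 and 425 CPM, which dropped to 58.9 and 79.5 CPM once cells that met a second rule were left out. After thinning, 84.1% of macrophages and 11.3% of neutrophils had a Trem2 molecule, against 15.5% of T cells and 22.2% of B cells. The neutrophil share was below both lymphoid shares, and whether it is background was not tested. The log2 difference of macrophages over neutrophils was 3.71 ± 0.23 (SE, 9 tags) and that of macrophages over monocytes 1.74 ± 0.08 (SE, 10 tags), with macrophages higher in all of these tags.

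Tyrobp, the shared adaptor, was found in nearly every myeloid cell. It had 1693 CPM in macrophages (1361 to 2249), 3657 CPM in neutrophils (3451 to 4179) and 1878 CPM in monocytes (1774 to 2097) at the median, and 98.7% of macrophages, 99.8% of neutrophils and 99.4% of monocytes had a molecule. Macrophage and monocyte ranges overlapped, with macrophages lower in 10 of the 10 tags that had both, and neutrophils stood apart above them. Dendritic cells, T cells and B cells had medians of 1439, 1171 and 1373 CPM. Within T cells that met no second rule, the pooled level was 728 CPM, so a part of the lymphoid signal remained. Across the 89 sums of a class in a tag, the genes most like Tyrobp on the log2 scale (5 CPM added) were Nfam1, a receptor with an activation motif of its own (Pearson r = 0.92), Igsf6 (r = 0.90) and Rhog (r = 0.89). These coefficients describe sums that share tags and libraries, and they carry no p.

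Cd300lf, the inhibitory member, had 100 CPM in macrophages at the median (66.8 to 136 over 18 tags), 720 CPM in neutrophils (592 to 961) and 164 CPM in monocytes (67.9 to 186). Its relative Cd300lb had 61.1 CPM in macrophages (47.7 to 75.4), 250 CPM in neutrophils (163 to 351) and 62.9 CPM in monocytes (32.6 to 81.4). For both, the neutrophil tags lay above all tags of the other 2 classes, and the macrophage and monocyte ranges overlapped. The gap between macrophages and neutrophils was -2.89 ± 0.15 for Cd300lf and -2.10 ± 0.16 for Cd300lb (log2 difference ± SE, 9 tags). In dendritic cells, T cells and B cells Cd300lf had medians of 74.3, 68.5 and 84.4 CPM, and Cd300lb 17.8, 28.1 and 37.9 CPM, its lowest being in dendritic cells. Cd300lf overlaps Rab37 on the opposite strand, but Rab37 had only 1.91 CPM in macrophages, 11.8 CPM in neutrophils and 4.17 CPM in monocytes, pooled over tags, far below Cd300lf in each.

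Clec4e had 267 CPM in macrophages at the median (114 to 642 over 18 tags), 2996 CPM in neutrophils (2859 to 4851) and 1060 CPM in monocytes (494 to 1398). Clec4d, its partner, had 453 CPM in macrophages (294 to 1121), 2881 CPM in neutrophils (2136 to 3329) and 590 CPM in monocytes (517 to 811). Neutrophil tags were above all others for both genes, and macrophage tags reached into the monocyte range for both. The medians in dendritic cells, T cells and B cells were 150, 186 and 371 CPM for Clec4e and 111, 210 and 387 CPM for Clec4d. The 2 neighbours differed in how far macrophages lay below monocytes, with log2 differences of -1.77 ± 0.17 for Clec4e and -0.43 ± 0.11 for Clec4d (SE, 10 tags). Without library 1, which holds 7 of the 10 tags, they were -1.16 for Clec4e and 0.01 for Clec4d, and in library 2 alone -0.89 and 0.17. Tyrobp moved from -0.38 over all tags to -0.10 without library 1, and Cd300lb from -0.06 to 0.44. The difference in Trem1 between macrophages and monocytes rested on library 1 too, at -1.88 within it, -0.70 without it and -0.25 within library 2, against -1.62 ± 0.25 over all tags.

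Over the 89 class-by-tag sums, Trem1 was most like Slc16a3, a lactate transporter (r = 0.95), Slc7a11, a cystine transporter (r = 0.92), and Trem3, a receptor of its own family (r = 0.91). Clec4e was most like Slc16a3 (r = 0.92), Trem1 (r = 0.91) and Cd44 (r = 0.90), and Clec4d most like the chemokine gene Cxcl2 (r = 0.96), Ets2 (r = 0.93) and the complement receptor gene C5ar1 (r = 0.93). For Trem2 the most alike were Apoe (r = 0.97), Selenop (r = 0.94) and Ms4a7 (r = 0.94). Cd300lf came closest to Msrb1 (r = 0.91), Litaf (r = 0.91) and Grina (r = 0.89), and Cd300lb to Entpd1 (r = 0.91), Lilr4b (r = 0.90) and Tlr13 (r = 0.89). Trem1 and Trem2 had r = -0.49.

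The pathway genes around these receptors were then counted by the edgeR test in the class comparisons, adjusted over all genes. Of 10386 genes tested between macrophages and neutrophils, 59.7% were called, 39.9% higher and 19.7% lower, and the median log2 difference of all genes was 0.58, or 0.74 with another scaling. Against that, 1 of 15 signalling adaptors and kinases was higher in macrophages, 10 were lower and 4 were not called. Syk, the kinase behind DAP12, had medians of 226 CPM in macrophages and 757 CPM in neutrophils (log2 difference -1.67 ± 0.15 SE, edgeR adjusted p = 1.1e-11), and Hcst, the DAP10 adaptor, 23.4 and 118 CPM in the same order (-2.55 ± 0.21, adjusted p = 3.93e-12). Among 19 other receptors of these families 7 were higher and 10 lower. Trem3 was at 9.78 CPM in macrophages and 380 CPM in neutrophils, and Treml4 at 5.40 CPM in macrophages and 110 CPM in neutrophils, both lower in 9 of 9 tags. Of 20 lipid and lysosome genes linked to Trem2, 15 were higher in macrophages and 3 lower, led by Fabp5, a fatty acid binding protein (3.66 ± 0.22), while Cd9 was lower (-2.20 ± 0.20). Neutrophils were shallower, as given above, and the part of depth in these calls was not tested.

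Between macrophages and monocytes 63.3% of 11215 genes were called, 31.9% higher and 31.4% lower. Of the 15 adaptors and kinases 1 was higher, 10 lower and 4 not called, with Malt1, part of the signalling complex below C-type lectins, at 112 CPM in macrophages and 267 CPM in monocytes (-1.23 ± 0.07, edgeR adjusted p = 2.01e-09). Of 19 other receptors 1 was higher and 12 lower, and of the 20 lipid and lysosome genes 15 were higher and 1 lower, Spp1 standing at 5752 CPM in macrophages and 1016 CPM in monocytes. Between neutrophils and monocytes, with 56.8% of 4915 genes called, 27.4% higher and 29.4% lower, 10 of 16 other receptors were higher and 3 lower, and 11 of 14 inflammatory targets were higher and 1 lower. Clec5a, a DAP12-coupled lectin, was at 388 CPM in neutrophils and 52.8 CPM in monocytes (2.90 ± 0.19, edgeR adjusted p = 3.63e-09).

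Macrophages of different tags ranged from 42.5 to 424 CPM in Trem1 and from 439 to 1133 CPM in Trem2. In each library a single tag was highest in Trem1, Clec4e and Clec4d and lowest in Trem2, namely tag 10 of library 1, tag 1 of library 2 and tag 7 of library 3. In library 1, Trem1 had 129, 66.6, 136, 58.8, 254.5, 81.3 and 42.5 CPM in tags 6 to 12. Library 2 gave 424, 144, 119, 117 and 42.7 CPM for tags 1 to 5. The values for library 3 were 339, 84.4, 84.7, 83.2, 42.9 and 162 CPM in tags 7 to 12. The step from the highest tag to the next was widest in library 2, and by Dixon's test the highest tag lay apart from the rest there but not in libraries 1 and 3.

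In those 3 tags Clec4e reached 493, 521 and 642 CPM and Clec4d 740, 821 and 1121 CPM. Trem2 of library 1 was at 485, 480, 448, 521, 439, 527 and 578 CPM in the same order of tags. That of library 2 was at 571, 870, 1048, 817 and 921 CPM, and that of library 3 at 577, 842, 970, 928, 1133 and 864 CPM. The lowest value of each library belonged to the tag with the most Trem1, and library 1, made with other beads and another pipeline release, had its highest tag, at 578 CPM, near the lowest tags of the other two. The summed neutrophil markers in macrophages were 293 CPM in tag 10 of library 1 against 89.7 to 154 CPM in its other tags, and 147 against 84.7 to 145 CPM for tag 1 of library 2. In library 3 tag 7 had 207 CPM and its other tags 99.3 to 477 CPM, so there the highest sum was in another tag. Summed monocyte markers in the 3 tags, at 1121, 354 and 398 CPM, lay within the range of the other tags of their library. Whether the time after infarction or the genotype differs between these tags, or between the libraries, was not tested.

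**Figure D2:**
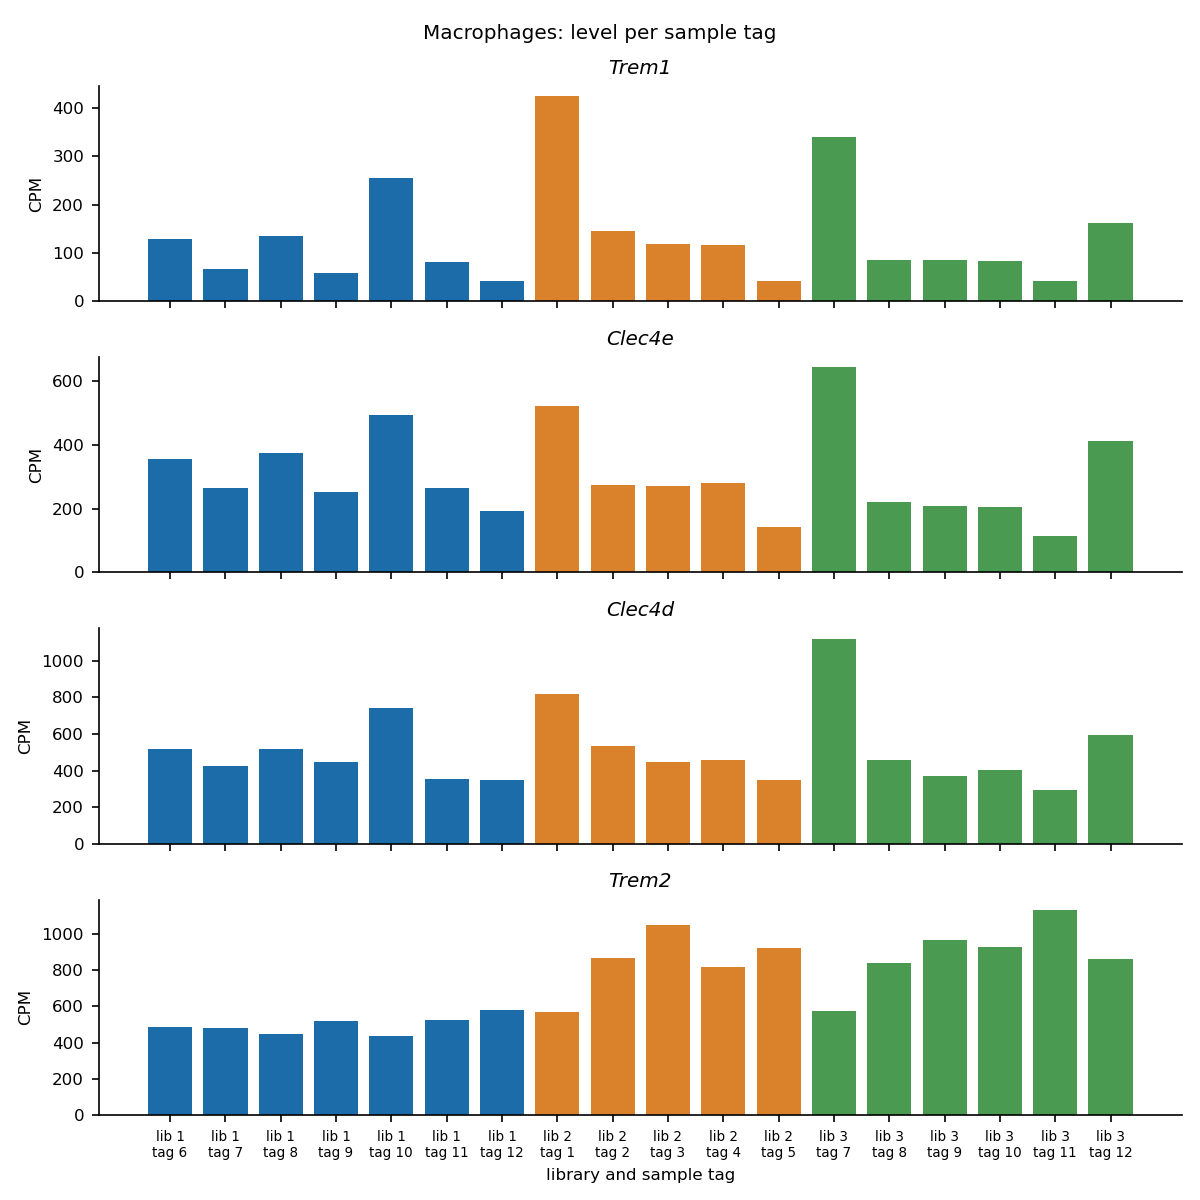
Level of Trem1, Clec4e, Clec4d and Trem2 in macrophages (CPM, bars from 0), by library and sample tag. Tag 10 of library 1, tag 1 of library 2 and tag 7 of library 3 have the highest Trem1 of their library, at 254.5, 424 and 339 CPM, and the lowest Trem2.

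Within single macrophages, Trem1 and Trem2 were found together less often than independent detection would give, once depth was made equal. Of 15023 macrophages 4891 had both, 347 Trem1 alone, 9076 Trem2 alone and 709 neither, and the odds ratio had a median of 1.23 over 18 tags (0.301 to 3.36). With cells thinned to 5000 molecules the median odds ratio was 0.438 and lay under 1 in 18 of 18 tags (0.255 to 0.961), so the direction seen with all molecules reversed. Clec4e went with Trem1, at a median odds ratio of 6.47 after thinning, above 1 in 18 of 18 tags, and against Trem2, at 0.549, above 1 in 0 of 18. Clec4d went with both, at 2.92 with Trem1 (18 of 18 tags above 1) and 1.55 with Trem2 (16 of 18). For Trem2 the inhibitory Cd300lf had 1.12 (13 of 18 tags) and Cd300lb 1.40 (17 of 18).

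The share of thinned macrophages with Trem1 decreased with every further Trem2 molecule. It was 32.7% in 2286 cells with no Trem2 molecule, 25.2% with 2, 16.7% with 4 and 8.52% in the 2606 cells with 6 or more. The shares at the 2 ends were 31.6% and 11.3% in library 1, 38.5% and 9.38% in library 2, and 32.6% and 5.70% in library 3. Clec4e had 54.9% at no Trem2 molecule and 20.6% at 6 or more, whereas Clec4d had 58.3% and 61.1%, Cd300lf 30.2% and 32.1%, and Cd300lb 19.7% and 29.5%. The step down between the 2 ends was thus found for Trem1 and Clec4e in all 3 libraries. The share with Clec4d was higher at 6 or more Trem2 molecules than at none in each library. It was 69.8% and 63.1% in library 1, 60.2% and 46.8% in library 2, and 55.5% and 45.7% in library 3. At 6 or more Trem2 molecules the Trem1 share was below that of T cells, 13.6%, and whether it is background was not tested.

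**Figure D3:**
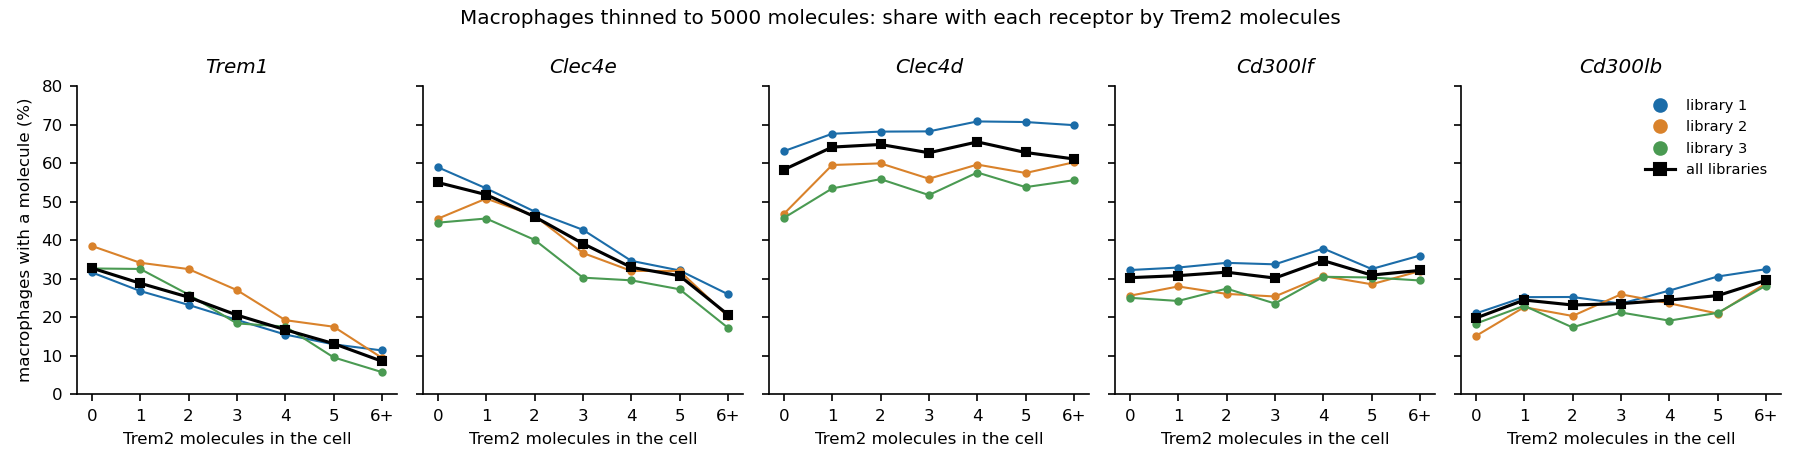
Share of macrophages with at least 1 molecule of each receptor (percent) by the number of Trem2 molecules in the cell, all cells thinned to 5000 molecules, per library and for all libraries. Over all libraries, Trem1 and Clec4e decrease from left to right, to 8.52% and 20.6% at 6 or more Trem2 molecules. Clec4d, Cd300lf and Cd300lb do not. In libraries 2 and 3, Clec4e is higher at 1 Trem2 molecule than at none and decreases after that.

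Macrophages with Trem1 alone were set against those with Trem2 alone in 9 tags. Clec4e had a median of 1015 CPM in Trem1-only cells (595 to 1531) and 163 CPM in Trem2-only cells (109 to 207), and Clec4d 752 CPM (408 to 1287) and 353 CPM (266 to 405) in the same order. The groups did not overlap in either gene, with log2 differences of 2.78 ± 0.15 and 1.24 ± 0.17 (SE). Cd300lb was lower in Trem1-only cells in 8 of 9 tags, at 31.8 CPM against 65.5 CPM (-0.89 ± 0.24), and Tyrobp (-0.01 ± 0.11) and Cd300lf (0.12 ± 0.14) differed by no more than their error. The edgeR test called 34.2% of 8806 genes, 18.1% higher and 16.1% lower. Of 16 inflammatory targets 11 were higher and 1, Ccl2, lower, with Il1b at 2937 CPM in Trem1-only and 384 CPM in Trem2-only cells (3.05 ± 0.23, edgeR adjusted p = 2.99e-08) and Il1a at 985 and 44.6 CPM in the same order. Of 19 lipid and lysosome genes 4 were higher, led by Itgax at 163 CPM against 73.6 CPM (1.13 ± 0.25, adjusted p = 0.00176), and 14 were lower, led by Gpnmb at 77.8 CPM and 1812 CPM in the same order (-4.32 ± 0.19, adjusted p = 1.36e-10). Trem1-only cells were shallower, at a median of 10709 molecules against 19451.5, and had more monocyte markers, 2350 against 756 CPM, in 9 of 9 tags. Neutrophil markers were at 259 against 95.8 CPM, higher in 8 of 9 tags. The log2 difference of Clec4e was 2.50 and that of Clec4d 1.36 with cells thinned to 5000 molecules. The part of the monocyte and neutrophil markers in these differences was not tested.

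The C1q threshold itself bears on such cells. Just above it, 404 cells with 0.1% to 0.125% of molecules from C1q had 258 CPM of Trem1, 361 CPM of Trem2 and 588 CPM of Clec4e. Just below it, 343 cells with 0.08% to 0.1% had 246, 367 and 631 CPM of the same genes. The 2 sides were alike in these values, and both lay above the macrophage average for Trem1 and Clec4e and below it for Trem2.

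The members were tested in 5 splits of the macrophages that their rule does not use. The splits are not independent of that rule, which set Trem1 against Trem2 within macrophages. Gpnmb, a gene of the lipid split, was far lower in Trem1-only than in Trem2-only macrophages, as given above. The p-values of Trem1 and Trem2 in that split are therefore no independent evidence on the contrast of the rule. In each tag the 25% of macrophages with the highest share of molecules from a small gene set, 3758 cells over all tags, was set against the other 11265 macrophages of the same tags, with edgeR's quasi-likelihood test, the tag as a block and adjustment over all genes. The sets were Arg1 and Saa3 (wound genes), Gpnmb and Fabp4 (lipid genes), H2-Aa, H2-Ab1 and H2-Eb1 (MHC class II), Lyve1, Folr2 and Cbr2 (resident macrophages), and Isg15, Ifit2, Ifit3 and Rsad2 (interferon-induced genes). The cut differed between tags, from 0.00723% to 0.877% of molecules for the wound genes and 0.0195% to 0.338% for the lipid genes. It ran from 0.0183% to 2.07% for MHC class II, 0.0159% to 0.0846% for the resident genes and 0.00671% to 0.0271% for the interferon genes. At the lowest cuts a cell can be in the high group with few molecules of the set. Both sides of each split come from the same 18 tags, which the labels describe as biological replicates.

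**Figure D4:**
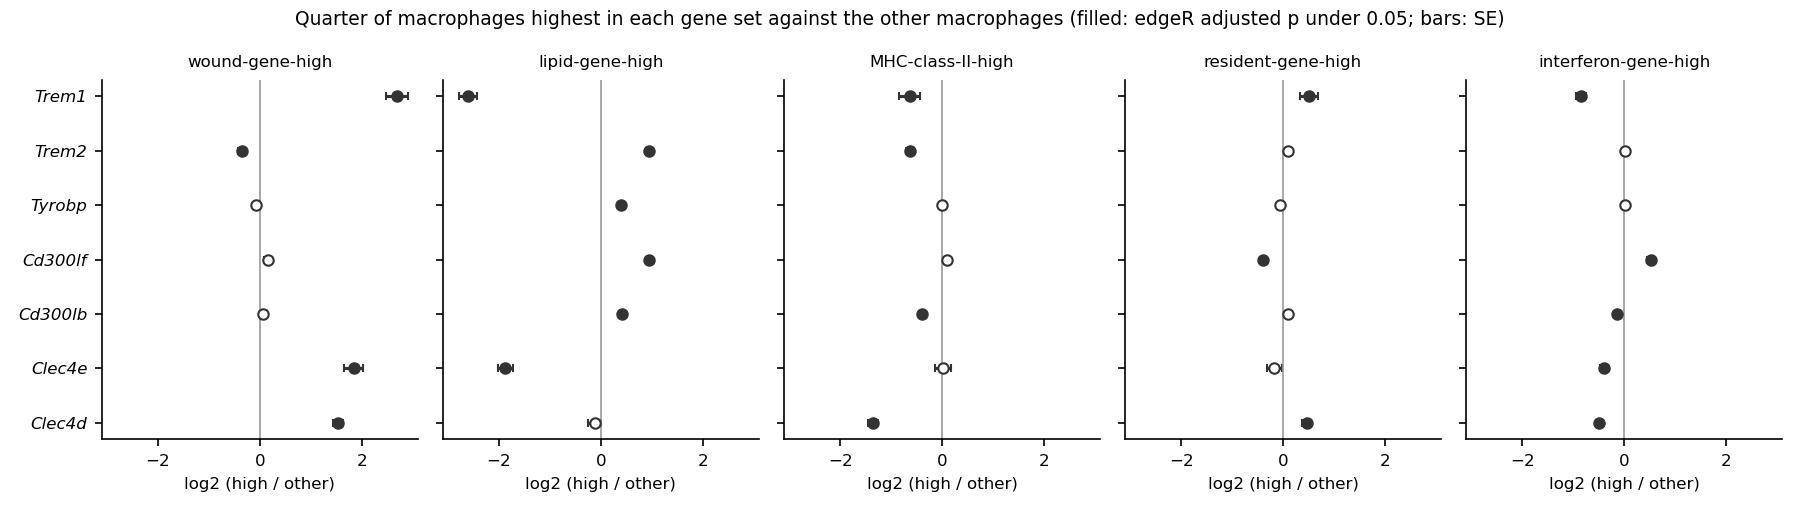
Log2 difference (± SE, 18 tags) of the 7 genes between the 25% of macrophages highest in each gene set and the other macrophages, filled where the edgeR adjusted p was under 0.05. Trem1 and Clec4e lie far right for the wound genes, at 2.69 and 1.84, and far left for the lipid genes, at -2.61 and -1.87, while Trem2 and Cd300lf lie right for the lipid genes.

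Macrophages high in Arg1 and Saa3, genes of arginine metabolism and the acute phase, had more Trem1, Clec4e and Clec4d and slightly less Trem2. Trem1 had a median of 272 CPM in wound-gene-high macrophages (70.5 to 668) and 38.7 CPM in the others (11.6 to 270), and was higher in 18 of 18 tags. The ranges over tags overlapped, yet within every tag the high group was above. The log2 difference was 2.69 ± 0.22 (edgeR adjusted p = 3.82e-09), and 2.23, 2.61 and 3.39 in libraries 1, 2 and 3 alone.

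Clec4e had 545 CPM in the wound-gene-high group (239 to 1144) and 168 CPM in the others (63.7 to 395), and Clec4d 867 CPM (421 to 2026) and 277 CPM (201 to 676) in the same order. Both were higher in 18 of 18 tags, by 1.84 ± 0.19 (edgeR adjusted p = 8.08e-08) and 1.54 ± 0.09 (adjusted p = 7.61e-11). Thinned to 5000 molecules, 44.1% of the high group and 13.99% of the other macrophages had Trem1, and 60.8% and 33.6% Clec4e. The share of Trem1 in the high group lies above the background in T and B cells, and that in the other macrophages lies close to the T-cell share. Neutrophil markers summed to a median of 56.9 CPM over cells of the high group and 59.9 CPM over the others, and monocyte markers to 192 and 382 CPM, so neither list was higher there at the median over cells. Summed over all cells of a tag, neutrophil markers were at 172 CPM in the high group and 119 CPM in the others, higher in 12 of 18 tags, and their part in the Trem1, Clec4e and Clec4d results was not tested.

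Trem2 had 560 CPM in the wound-gene-high group and 797 CPM in the others, lower in 16 of 18 tags (-0.35 ± 0.08, edgeR adjusted p = 0.000661). This call was not made without the tag as a block (-0.39, adjusted p = 0.0594), and the difference was -0.04 in library 1 alone. Tyrobp (-0.08 ± 0.04, adjusted p = 0.106), Cd300lf (0.15 ± 0.07, adjusted p = 0.084) and Cd300lb (0.06 ± 0.06, adjusted p = 0.463) were not called by edgeR, and Cd300lf was called with thinned cells (0.28, adjusted p = 0.00285) and without library 2 (0.23, adjusted p = 0.0427). With 4 of 7 members called, the background was 48.5% of all genes, 23.5% higher and 24.9% lower. Of 17 inflammatory targets 14 were higher and 0 lower, with 3 not called, and their median log2 difference was 0.82 against -0.03 for all genes. Il6 stood at 169 CPM in the high group and 4.17 CPM in the others, and Il1a at 640 and 34.3 CPM in the same order. Of 20 lipid and lysosome genes 4 were higher, led by Cd9, and 14 lower, led by Axl at 38.4 CPM against 162 CPM. Among the receptors, Trem3 was higher at 15.2 CPM against 4.42 CPM (1.77 ± 0.21) and Clec4a3 lower at 137 CPM against 260 CPM (-0.84 ± 0.07).

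Macrophages high in Gpnmb and Fabp4 showed the opposite picture, with more Trem2, Cd300lf, Cd300lb and Tyrobp and less Trem1 and Clec4e. Trem2 had 1177 CPM in lipid-gene-high macrophages (601 to 1536) and 557 CPM in the others (366 to 891), higher in 18 of 18 tags (0.95 ± 0.06, edgeR adjusted p = 3.91e-12). The inhibitory Cd300lf had 147 CPM in the high group (94.7 to 211) and 79.0 CPM in the others (48.3 to 102), with the same size of difference (0.94 ± 0.05, adjusted p = 3.74e-12). Both genes rose within every tag, and the ranges over tags overlapped. Cd300lb was at 72.5 CPM in the high group against 56.2 CPM (0.42 ± 0.04, adjusted p = 1.01e-08), and Tyrobp at 2013 CPM against 1571 CPM (0.39 ± 0.03, adjusted p = 1.38e-09), each higher in 18 of 18 tags.

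Trem1 fell to 19.5 CPM in the lipid-gene-high group (4.08 to 102), against 140 CPM in the others (54.4 to 527), and Clec4e to 86.1 CPM (29.8 to 283), against 352 CPM (161 to 753). Neither gene was higher in the high group in any of the 18 tags, with log2 differences of -2.61 ± 0.17 (edgeR adjusted p = 1.61e-11) and -1.87 ± 0.15 (adjusted p = 3.26e-10). Clec4d parted from its neighbour, at 429 CPM against 467 CPM (-0.12 ± 0.13, adjusted p = 0.424), higher in 7 of 18 tags. Thinned, 8.57% of the high group and 26.1% of the others had Trem1, 26.1% and 45.4% Clec4e, and 73.7% and 58.8% Clec4d, whose share runs against its level, so no order is read from it. The Trem1 share in lipid-gene-high macrophages is below that of T cells, and whether it is background was not tested. Monocyte markers were lower in the high group too, at 74.9 CPM against 535 CPM at the median over cells, and their part in the Trem1 and Clec4e results was not tested.

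With 6 of 7 members called, the background of the lipid split was 61.6%, 28.7% higher and 32.9% lower. Of 19 lipid and lysosome genes 13 were higher and 2 lower, with a median log2 difference of 1.08 against -0.02 for all genes. Fabp5 had 3499 CPM in the high group and 569 CPM in the others (2.75 ± 0.10, edgeR adjusted p = 2.93e-15), and Lpl, lipoprotein lipase, 889 and 300 CPM (1.64 ± 0.07). Of 17 inflammatory targets 0 were higher and 16 lower, with Il1b at 165 CPM against 901 CPM. Of the adaptors and kinases 2 of 15 were higher and 10 lower, Malt1 at 51.9 CPM against 101 CPM. Cd300a, an inhibitory receptor beside Cd300lf, was higher at 187 CPM against 140 CPM (0.48 ± 0.05), whereas Cd33 was lower at 74.4 CPM against 154 CPM (-1.07 ± 0.06).

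Macrophages high in MHC class II genes had less Clec4d, Trem2 and Cd300lb. Clec4d had 190 CPM in the high group (111 to 573) and 509 CPM in the others (334 to 1293), lower in 18 of 18 tags (-1.35 ± 0.10, edgeR adjusted p = 9.02e-11). Trem2 had 514 CPM in the high group (292 to 753) and 744 CPM in the others (464 to 1250), lower in 17 of 18 (-0.63 ± 0.07, adjusted p = 7.19e-08), and Cd300lb 46.2 and 64.2 CPM, lower in 18 of 18 (-0.39 ± 0.04, adjusted p = 1.01e-07). Within every tag Clec4d was below the other macrophages although its ranges over tags overlap.

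Trem1 had 61.9 CPM in the MHC class II-high group and 111 CPM in the others (-0.63 ± 0.20, edgeR adjusted p = 0.0100), but the call was lost without library 2 (adjusted p = 0.0667) or library 3 (adjusted p = 0.204), and the difference was 0.07 in library 1 alone and -1.26 without library 1. Clec4e was not called (0.02 ± 0.16, adjusted p = 0.935) and went both ways, at 0.63 in library 1, -0.49 in library 2 and -0.38 in library 3, and it was called lower without library 1 (-0.42, adjusted p = 0.0474). Tyrobp (0.00 ± 0.03, adjusted p = 0.925) and Cd300lf (0.10 ± 0.05, adjusted p = 0.0902) were not called either, the second being called without library 1 (0.22, adjusted p = 0.00419). The background was 55.9% of genes called, 27.1% higher and 28.8% lower. Of 22 other receptors 16 were higher and 2 lower, led by the dendritic cell lectin Clec4b1 at 19.7 CPM against 2.12 CPM, and of 20 lipid and lysosome genes 5 were higher and 15 lower, Spp1 at 1211 CPM against 4025 CPM, while Axl was higher at 324 CPM against 81.2 CPM. In this group monocyte markers stood at 1263 CPM against 370 CPM, dendritic cell markers at 344 CPM against 62.2 CPM and B-cell markers at 154 CPM against 45.1 CPM, each higher in 18 of 18 tags. Their part in the members' differences was not tested.

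Macrophages high in Lyve1, Folr2 and Cbr2, genes of macrophages that reside in tissue, had more Clec4d and less Cd300lf. Clec4d had 590 CPM in the high group (349 to 1244) and 407 CPM in the others (236 to 1072), higher in 15 of 18 tags (0.46 ± 0.09). The edgeR adjusted p was 0.000353 with the tag as a block and 0.117 without it. Cd300lf had 82.7 and 108 CPM, lower in 16 of 18 tags (-0.39 ± 0.06, adjusted p = 5.11e-05). Trem1, at 131 CPM in the high group and 79.9 CPM in the others, passed narrowly (0.51 ± 0.17, adjusted p = 0.0304) and failed without library 2 (0.45, adjusted p = 0.117), without library 3 (0.28, adjusted p = 0.379), without the block (0.50, adjusted p = 0.433) and with thinned cells (0.42, adjusted p = 0.0502), while it was 0.82 without library 1. Trem2 (0.09 ± 0.06, adjusted p = 0.230, called at 0.18 without library 2, adjusted p = 0.0435), Tyrobp (-0.05 ± 0.03, adjusted p = 0.225), Cd300lb (0.09 ± 0.04, adjusted p = 0.0634) and Clec4e (-0.17 ± 0.14, adjusted p = 0.400) were not called. Calls covered 31.5% of all genes, 16.3% higher and 15.2% lower, against 3 of the 7 members. Monocyte markers were at 124 CPM in the high group and 435 CPM in the others at the median over cells, and their part in these differences was not tested. Inflammatory targets were higher in 8 of 17 and lower in 2, with Cxcl1 at 1251 CPM against 725 CPM, and Itgax, one of the 5 of 20 lipid and lysosome genes that were lower, was at 36.2 CPM against 121 CPM.

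Interferon-gene-high macrophages had more Cd300lf and less Trem1, Clec4d and Clec4e. Cd300lf had 133 CPM in the high group (63.1 to 178) and 89.9 CPM in the others (66.2 to 130), higher in 17 of 18 tags (0.52 ± 0.06, edgeR adjusted p = 7.27e-07). Trem1 had 59.2 CPM in the high group (15.6 to 245) and 115 CPM in the others (43.3 to 490), and Clec4d 343 CPM (259 to 707) and 480 CPM (301 to 1254), both lower in 18 of 18 tags. Their log2 differences were -0.85 ± 0.10 (adjusted p = 2.04e-07) and -0.49 ± 0.06 (adjusted p = 9.61e-07).

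Clec4e had 222 CPM in the interferon-gene-high group and 279 CPM in the others, lower in 16 of 18 tags (-0.40 ± 0.08, edgeR adjusted p = 0.00022). Cd300lb was called lower too (-0.13 ± 0.04, adjusted p = 0.0250), but not with any 1 library left out. Without the block 3 member calls were lost, among them those of Trem1 (-0.86, adjusted p = 0.132) and Clec4e (-0.39, adjusted p = 0.346). Trem2 (0.01 ± 0.03, adjusted p = 0.778) and Tyrobp (0.02 ± 0.02, adjusted p = 0.575) were not called. Calls covered 30.9% of all genes, 15.0% higher and 15.9% lower. Treml2, a further member of the family, was higher at 48.3 CPM against 18.7 CPM (1.28 ± 0.08), and so was Fcgr1, a high-affinity Fc receptor, at 365 CPM against 154 CPM (1.25 ± 0.05), among 8 of 21 other receptors that were higher and 3 that were lower. Monocyte markers were higher here as well, at 648 CPM against 490 CPM, in 17 of 18 tags, as were neutrophil markers, at 169 CPM against 118 CPM, in 12 of 18. Their part in the members' differences was not tested.

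Macrophages with an F7 molecule were then described. F7, the gene the study is about, was found in 2475 of the 15023 macrophages, and F7-negative cells can come from either genotype, so lack of expression and deletion by the Cre cannot be told apart. Cd300lf had a median of 152 CPM in F7-positive macrophages (99.9 to 220 over 16 tags) and 88.9 CPM in F7-negative macrophages (74.0 to 117), and was higher in 16 of 16 tags. Its log2 difference was 0.77 ± 0.07 (SE), and 0.93, 0.54 and 0.71 in libraries 1, 2 and 3 alone. Clec4d was also higher in 16 of 16 tags, at 825 CPM (432 to 1886) against 405 CPM (273 to 833), by 0.97 ± 0.07. Trem1 was higher in 15 of 16 tags, at 242 CPM (37.1 to 701) against 98.2 CPM (39.1 to 284), by 1.08 ± 0.15. The ranges of F7-positive and F7-negative cells overlapped over tags in all 3 genes.

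Clec4e was higher in 12 of 16 tags (0.69 ± 0.16), at 0.04 in library 1 and 1.20 in each of libraries 2 and 3. Trem2 had 612 CPM in F7-positive and 664 CPM in F7-negative macrophages (-0.03 ± 0.09), with 0.31 in library 1, -0.34 in library 2 and -0.28 in library 3. Cd300lb (0.10 ± 0.07) and Tyrobp (0.06 ± 0.03) lay near 0. F7-positive cells were deeper, at a median of 32187 molecules against 19062.5, which raises any share of cells with a molecule. Cd300lf was found in 83.0% of F7-positive and 56.0% of F7-negative macrophages with all molecules, and in 45.9% of 947 and 30.4% of 13412 cells after thinning, higher in 13 of 13 tags. Thinned shares of Clec4d were 85.5% and 61.0% (13 of 13 tags), of Trem1 34.6% and 20.7% (12 of 13) and of Clec4e 52.6% and 39.6% (10 of 13), whereas those of Trem2, 83.3% and 84.1%, and Cd300lb, 25.3% and 24.3%, hardly differed, each higher in 6 of 13 tags.

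The pooled level of Cd300lf was higher with more F7 molecules, from 91.4 CPM in the 12548 cells with none through 139 CPM with 1 and 149 CPM with 2 to 179 CPM in the 1025 cells with 3 or more. Median depth rose over the same groups, at 19062.5, 25994, 28787 and 39660 molecules, and these values were pooled over tags and not thinned, so the part of depth and library was not tested. Clec4d had 418, 714, 672 and 754 CPM and Trem1 99.4, 192, 165 and 191 CPM in the same order, so both were higher with 1 F7 molecule and had no clear order beyond it. Across all genes 40.7% were called, 20.1% higher and 20.6% lower, in F7-positive macrophages. Of 17 inflammatory targets 9 were higher and 2 lower, with Il6 at 179 CPM in F7-positive and 41.0 CPM in F7-negative macrophages (1.96 ± 0.22, edgeR adjusted p = 5.77e-07). Of 20 lipid and lysosome genes 9 were higher and 4 lower, Ctsl at 2612 CPM against 1261 CPM and Axl at 44.2 CPM against 130 CPM. Of 16 inhibitory receptors and phosphatases 2 were higher and 10 lower, with Clec12a at 149 CPM against 295 CPM (-0.86 ± 0.12, adjusted p = 8.5e-06). Since the rule used Cd300lf by F7, nothing about Cd300lf is read from that list. Monocyte markers were lower in F7-positive cells, at 397 CPM against 615 CPM, and B-cell markers at 13.99 CPM against 73.8 CPM.

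**Figure D5:**
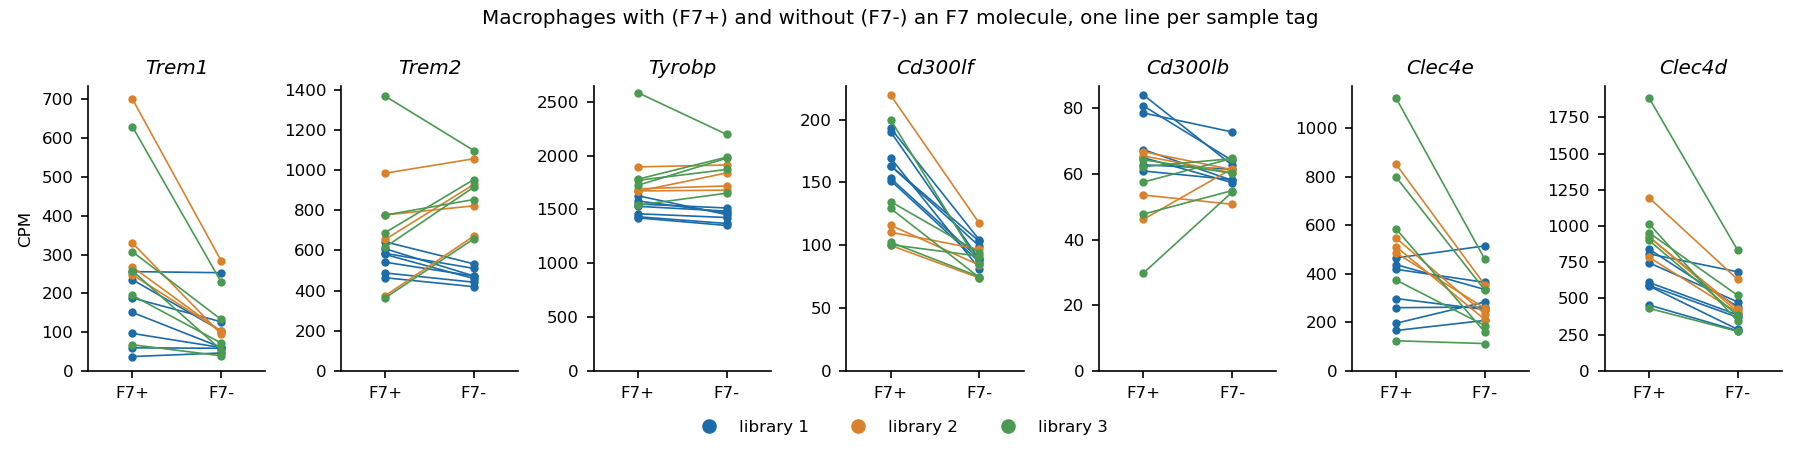
Level of each gene (CPM, axis from 0) in macrophages with an F7 molecule (F7+, left) and without one (F7-, right), with 1 line per sample tag coloured by library. Cd300lf and Clec4d slope down to F7- in 16 of 16 tags and Trem1 in 15 of 16, and Trem2, Tyrobp and Cd300lb have no common slope.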

How the data were processed

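The authors' deposited files hold raw counts of molecules per cell and gene after error correction of molecular identifiers, made with the BD Rhapsody Pipeline. Genome and gene models were GRCm38 and GENCODE M19, as stated in the headers, which give version 1.10 with original beads for libraries 2 and 3, and version 2.0b1 with enhanced beads and intronic reads kept for library 1. A gene with no column in a file was taken as 0. Cells with under 200 genes were dropped, and no doublet caller was run. Instead, leaving out cells that met more than 1 of the T-cell, B-cell, neutrophil and macrophage rules was an alternative. It left the cells of the comparison of macrophages with monocytes unchanged.

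The counts were summed per sample tag and cell group, for tags with at least 20 cells of each group compared, and tested with edgeR 4.0.16 in R 4.3.3 (quasi-likelihood test, TMM scaling, filterByExpr, tag as a block, Benjamini-Hochberg over all genes, threshold 0.05). Both groups of a comparison come from the same tags, which is what the block pairs. Genes that define a split were left out of its test. In the comparisons their rule used, the other members were fitted and counted with all genes, but their p-values are not given. Each SE was derived from the log2 difference and the F statistic of the test. P-values set the difference within tags against its variation over tags. The labels call the tags biological replicates, and whether the codes in the tag names stand for single animals was not examined. Thinning drew a fixed number of molecules per cell at random. CPM are molecules per 1000000 molecules, and since reads come from transcript ends, levels are compared between cells and not between genes. The members and the 5 gene lists (94 genes, of which Clec7a had no column) were chosen with earlier results of these data known. From each list at most the 3 called genes with the largest difference in each direction were open to naming. Alternatives were DESeq2 1.42.0, its size factors, no filter, no block, each library left out and other thresholds. Intervals cover counting error only. The demultiplexing table was not used here, and sums of the macrophage marker list are not reported here.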

Additional observations from a re-analysis of the deposited data

Results flagged for a closer look

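The 7 genes were checked in macrophages for 1 tag far from the others of its library, which makes 21 checks, and chance flags about 1 in 20. Trem1 in tag 1 of library 2 stood apart at 424 CPM, with the next tag at 144 CPM and the lowest at 42.7 CPM. Clec4d in tag 7 of library 3 stood apart at 1121 CPM, with the next tag at 595 CPM and the lowest at 294 CPM. Both are the tags with the most Trem1 of their library, and their condition was not analysed here.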

How the results depend on the processing

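Of the recomputed results, 1099 kept their direction and their side of the threshold or moved little, 25 lost a call, 15 gained one, 58 moved and 41 changed sign. Fits within 1 library and with thinned splits were chosen after seeing the data. The odds ratio of Trem1 and Trem2, 1.23 with all molecules, was 0.438 thinned to 5000 and 0.604 thinned to 1000 molecules. The Cd300lf share differed by 12.6 percentage points between F7-positive and F7-negative macrophages when thinned, against 25.2 with all molecules, and the differences of Trem2 and Cd300lb turned to -0.522 and -1.16 points. Thinning also left out shallow cells and scored detection again, and the cause of these and the other changes was not tested.

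Without the replicate block, calls dropped to 1319 higher and 1246 lower for F7 (2291 and 2338 with it), 1657 lower for the wound genes, 2102 lower for MHC class II, 654 higher and 644 lower for the resident genes, and 620 higher and 226 lower for the interferon genes. Without a filter they were 1475 higher for F7, 1226 higher for the resident genes, 1117 higher and 3040 lower for the interferon genes, 2502 lower for neutrophils against monocytes, and 2260 lower for Trem1-only cells. Thinned F7 groups gave 519 higher and 545 lower, and at least 50 cells per tag gave 2520 higher for macrophages against neutrophils.

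With each library left out, counts ranged from 2484 to 4034 higher and 1354 to 2036 lower for macrophages against neutrophils, 512 to 3837 and 468 to 3635 against monocytes, 545 to 1597 and 498 to 1386 for Trem1-only cells, 1142 to 1963 and 1099 to 1695 for the resident genes, and 1032 to 1459 and 775 to 1591 for the interferon genes. The lowest counts came without library 1, except for the resident genes, where they came without library 3.

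Among members that changed sign, only Clec4e for MHC class II was called both ways, at 0.63 in library 1 and -0.42 without it, and only Trem1 for MHC class II, at -0.63, had been called. For macrophages against monocytes, Clec4d was -0.54 to 0.014 with a library left out and 0.17 in library 2. For the wound genes, Cd300lb was -0.042 to 0.13 with a library left out and -0.11 in library 3, Cd300lf -0.0071 to 0.23 and -0.061 in library 2, and Tyrobp 0.078 in library 1. For the lipid genes, Clec4d was -0.29 to 0.053 with a library left out, 0.17 in library 1 and 0.016 thinned. For MHC class II, Clec4e was -0.057 without a filter, -0.0095 with DESeq2, -0.012 with a fixed share of 0.05%, -0.039 without the block, -0.42 to 0.22 with a library left out, -0.49 in library 2 and -0.38 in library 3. Tyrobp was -0.070 without a filter, -0.0084 to 0.027 with a library left out, -0.027 in library 3 and -0.0026 with the fixed share, Cd300lf -0.054 and Trem1 0.068 in library 1. For the resident genes, Clec4e was -0.41 to 0.13 with a library left out and 0.30 in library 3, Trem2 -0.053 to 0.18, -0.14 in library 2, -0.0020 in library 3 and -0.016 with the fixed share, and Tyrobp 0.055 in library 1. For the interferon genes, Trem2 was -0.046 without a filter, -0.019 to 0.053 with a library left out, -0.030 in library 1 and -0.029 thinned, and Tyrobp -0.041 without a filter, -0.047 in library 2 and -0.0034 with the fixed share.

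Too few tags remained to fit macrophages against neutrophils in library 2, macrophages against monocytes in library 3, neutrophils against monocytes without library 1 or within library 2 or 3, and Trem1-only against Trem2-only cells with at least 50 cells or within library 2 or 3. Low depth in neutrophils limits what can be said of genes under the level of 1 molecule per cell.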

Other observations

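The 4327 cells that met no class rule carried these receptors as well. Their medians over 18 tags were 182 CPM for Trem1 (40.6 to 656), 272 CPM for Trem2 (146 to 460) and 1221 CPM for Tyrobp (742 to 1385). Clec4e had 555 CPM (180 to 982) and Clec4d 464 CPM (208 to 957), while Cd300lf had 92.5 CPM and Cd300lb 39.9 CPM. Thinned to 5000 molecules, 36.1% of these cells had a Trem1 molecule and 48.1% a Trem2 molecule.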
